A study of Nothobranchius furzeri with 12 samples.

Results

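The 100 genes that took the most reads in the killifish intestine were described here. The African turquoise killifish, Nothobranchius furzeri, is a very short-lived vertebrate and an established model of aging. They were chosen by their mean relative count. For every gene the count was taken relative to the library total (CPM, the usual scaled unit). The mean was formed over 11 libraries of all groups, and the genes with the highest means were kept. The choice thus used the levels of the genes and not the differences between groups. A gene near the limit could still enter through a group in which it was high. These are 100 of the 25475 genes in the count table, or 0.393% of them. The study asked how age and feeding alter gene expression in the gut of male, wild-type (WT) fish of the strain GRZ. W10 denotes fish killed at 10 weeks (adult), W20 AL fish killed at 20 weeks (old) after unrestricted (ad libitum) feeding throughout, and W20 IF fish killed at 20 weeks that had been fed only on alternate days (intermittent fasting) since week 10. All groups received the same kind of food, and W10 fish had also been fed without restriction. The labels name the tissue as intestine, with 4 libraries for each group, and the results of the study speak of whole intestines. The methods of the study instead speak of the small intestine, give other numbers of fish and mention an IF sample that failed quality assessment, and whether that sample is among the libraries used here is not known.

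The gut wall is a mixture of absorptive epithelial cells, mucus-secreting goblet cells, muscle, connective tissue and immune cells. In most tissues a small set of genes, such as those for the machinery of translation and for the main products of the leading cell type, supplies a large part of the messenger RNA. Counts are shares of a library, so a gene that gains reads takes them from all others, and in bulk tissue fewer cells of a type and less RNA per cell cannot be told apart.

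The genes carry Ensembl identifiers, none of which could be paired with a gene name, so members are called by their rank among the 25475 genes, from 1 for the highest mean CPM. The pathway lists and the markers by which the tissue itself would be checked could not be applied for the same reason, and neither functions nor positions in the genome are given. CPM values are not corrected for the length of a gene, so the ranks order genes by reads and not by molecules. Of the libraries, 11 held 23226098 to 26986542 counts, and the remaining one, W20 IF replicate 4, held 1512262, which is 16.8-fold below their median. That library was left out of the choice of genes and of the tests, and its values are given beside the others. In the 11 libraries the lowest count of any member was 16526, and in W20 IF replicate 4 it was 779. All 100 members passed the filter on low counts, which left 18277 genes for the tests.

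Together the 100 genes held 47.0% of all counts on average over the 11 libraries. Their share of the library was 46.4, 46.2, 47.9 and 46.8% in the W10 fish, 46.9, 47.9, 48.4 and 47.5% in the W20 AL fish and 44.7, 46.5 and 48.1% in the W20 IF fish. W20 IF replicate 4 was the highest of all at 50.3%. The lowest and the highest of the 11 values both came from old fish, W20 IF replicate 1 and W20 AL replicate 3. Counting error is small beside these differences, since the 95% Wilson interval of a share was at most 0.0203 percentage points to either side in the 11 libraries and 0.0797 in W20 IF replicate 4 (intervals cover counting error only).

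The mean share was 46.8% ± 0.775 (SD, n = 4) in W10, 47.7% ± 0.644 (SD, n = 4) in W20 AL and 46.5% ± 1.70 (SD, n = 3) in W20 IF. The groups overlapped in all 3 comparisons. W20 AL lay 0.874 points above W10 (two-sided exact permutation test, p = 0.1143), W20 IF differed from W20 AL by -1.22 points (exact p = 0.2857) and W20 IF differed from W10 by -0.345 points (exact p = 0.8). After Benjamini-Hochberg adjustment over the 9 tests on shares these p-values were 0.2572, 0.5143 and 0.9. The smallest p that 4 libraries against 3 can give is 0.0571, so no comparison with W20 IF could have passed 0.05. After the adjustment over the 9 tests, no comparison of shares could have passed it. The difference between the W20 groups was -0.268 with W20 IF replicate 4 included, -0.358 without W20 IF replicate 1 and -2.06 without W20 IF replicate 3. That between W20 IF and W10 changed its sign to 0.606 with W20 IF replicate 4 included, to 0.0199 without W10 replicate 3 and to 0.516 without W20 IF replicate 1.

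**Figure D1:**
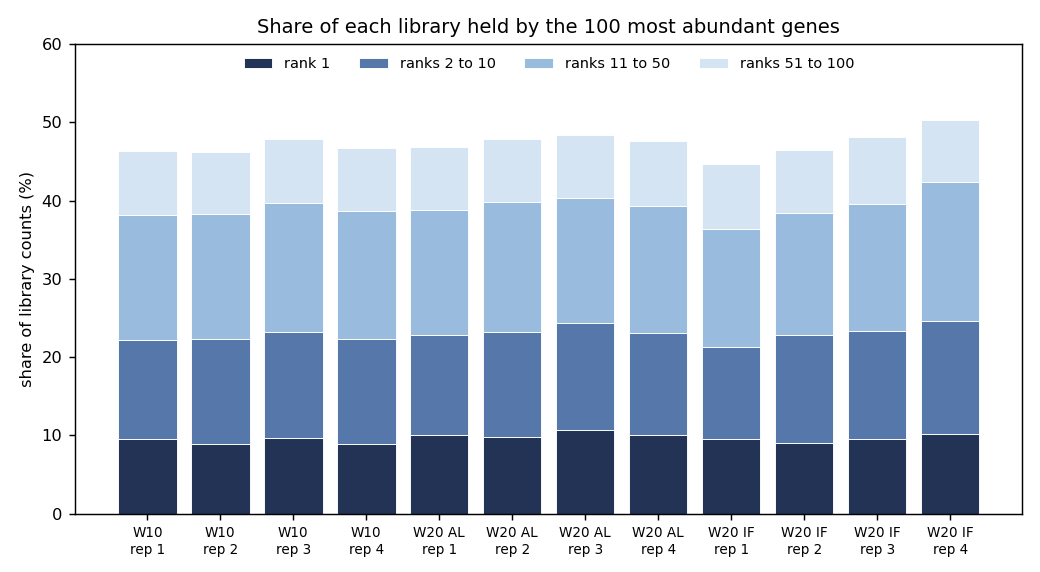
Share of library counts (%, vertical axis, from 0) held by the 100 most abundant genes in each of the 12 libraries, stacked from the gene of rank 1 at the bottom to ranks 51 to 100 at the top. The total lies between 44.7 and 48.4% in 11 libraries and at 50.3% in W20 IF replicate 4, and the darkest block, 1 gene, takes 8.91 to 10.7% of every library.

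A single gene dominated every library. ENSNFUG00015020740, rank 1, took 9.55, 8.91, 9.66 and 8.94% of the counts in the W10 fish, 10.0, 9.79, 10.7 and 10.0% in the W20 AL fish and 9.50, 9.08 and 9.56% in the W20 IF fish, with 10.2% in W20 IF replicate 4. All 4 W20 AL values lay above all W10 values and above those of the 3 W20 IF fish of the test, but W20 IF replicate 4 fell within the W20 AL range. The mean share was 9.27% ± 0.395 (SD, n = 4) in W10, 10.1% ± 0.415 (SD, n = 4) in W20 AL and 9.38% ± 0.259 (SD, n = 3) in W20 IF. W20 AL exceeded W10 by 0.867 points (exact permutation p = 0.0286, adjusted 0.257 over the 9 tests), and W20 IF differed from W20 AL by -0.752 points (exact permutation p = 0.0571, adjusted 0.257). Neither passed after adjustment, and 0.0286 and 0.0571 are the smallest p-values these group sizes allow. With such limits no adjusted p-value over the 9 tests could have come under 0.05, so the adjusted values decide nothing. edgeR's quasi-likelihood test gave this gene a log2 fold change of 0.14 (SE 0.073, adjusted p = 0.319) for W20 AL against W10, -0.12 (SE 0.079, adjusted p = 0.360) for W20 IF against W20 AL and 0.02 (SE 0.079, adjusted p = 0.909) for W20 IF against W10. Of the 100 members it varied least between fish of a group, with a coefficient of variation (CV, SD as a percent of the mean) of 3.71% averaged over the groups.

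The dominant gene was the largest single term in the differences of total share between W20 AL and each of the other groups. Between W10 and W20 AL the rises of members summed to 2.63 points and the falls to -1.76 points, and the gene of rank 1 alone contributed 0.867 of the net 0.874 points, leaving 0.00741 for the other 99. Between W20 AL and W20 IF the rises summed to 1.55 points and the falls to -2.77 points, of which rank 1 gave -0.752 and rank 4 gave -0.380. Between W10 and W20 IF rank 1 contributed 0.115 points to a net of -0.345, and rank 4 gave the largest term, -0.420. With rank 1 removed from the members and from the totals alike, so that every other share grew, the differences of the remaining 99 were 0.407 points for age, -0.863 between the diets and -0.456 between the old fasted and the young fish (exact permutation p = 0.3714, 0.5143 and 0.6857). These sums are descriptions of group means, since no difference in total share passed a test, and none could have after adjustment.

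Below the dominant gene the counts dropped 4.02-fold to rank 2 and then declined in steps. The mean shares of ranks 2 to 7 were 2.39, 1.89, 1.73, 1.67, 1.54 and 1.49%, and a second gap followed to ranks 8, 9 and 10, at 0.870, 0.813 and 0.800%. In all, 7 members held more than 1% of the counts each, 17 held more than 0.5% and 44 held less than 0.2%. The first 11 members accounted for 50 percent of the counts of all 100, and rank 1 received 77.4 times the counts of rank 100. The 10 most abundant genes held 22.1 to 23.2% of the counts in W10, 22.9 to 24.4% in W20 AL and 21.2 to 23.3% in W20 IF, with 24.7% in W20 IF replicate 4. The groups overlapped here too (exact permutation p = 0.0857, 0.4 and 0.9714 for W20 AL against W10, W20 IF against W20 AL and W20 IF against W10, adjusted 0.2571, 0.6 and 0.9714).

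At the lower end there was no gap. The mean CPM was 1266 at rank 99 and 1242 at rank 100, just inside the limit, and 1233 and 1228 for the next pair of genes, just outside. The last places in the list therefore rest on differences of under 40 CPM between neighbours.

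**Figure D2:**
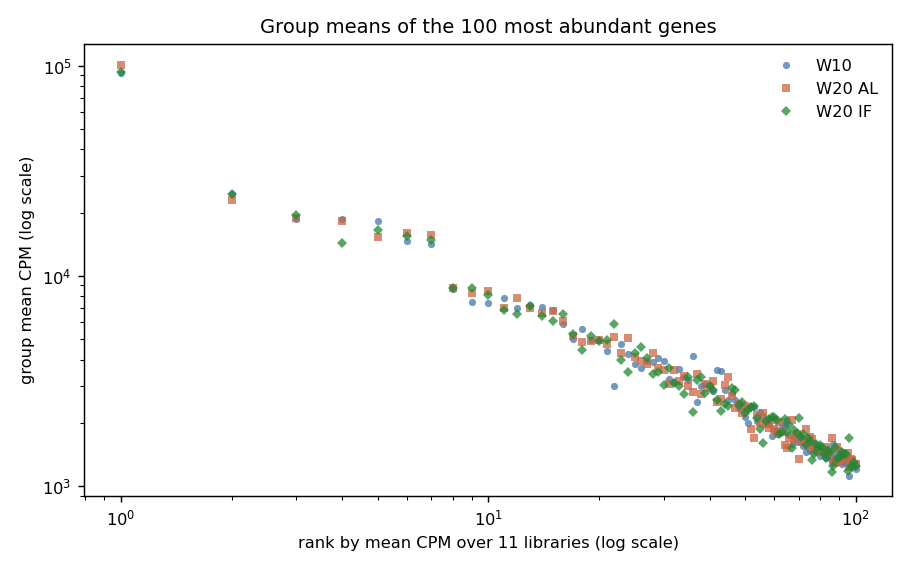
Group mean CPM (vertical axis, log scale) of the 100 genes against their rank by mean CPM over 11 libraries (horizontal axis, log scale), for W10 (4 fish), W20 AL (4 fish) and W20 IF (3 fish). The 3 groups follow the same curve, with gaps after ranks 1 and 7, and separate most visibly at rank 22, where W10 lies at 2986 CPM, W20 AL at 5105 and W20 IF at 5885.

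The rank order was largely shared by the groups. The first 3 genes were the same, in the same order, in W10, W20 AL and W20 IF, and the 7 highest genes formed the same set in each. Of the first 10 members, 9 were among the top 10 of every group, and 93 of the 100 were among the top 100 of every group. Within the upper 7, rank 4 stood at place 4 in W10 and W20 AL and at place 7 in W20 IF, with 17773, 19404, 18322 and 18905 CPM in W10, 15635, 19187, 19690 and 18265 CPM in W20 AL and 11087, 15130 and 16980 CPM in W20 IF. The W20 IF values overlapped those of W20 AL and lay below all W10 values, and the gene did not pass the test (log2 fold change -0.34 against W20 AL, adjusted p = 0.117, and -0.36 against W10, adjusted p = 0.168, edgeR). W20 IF replicate 4 held 13914 CPM of it, within the range of its group. The place of a gene moved more the lower it stood. The range of its 3 group ranks had a median of 1 for ranks 1 to 10, 6 for ranks 11 to 50 and 11 for ranks 51 to 100.

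As a description, Spearman's rho between the group means of the 100 genes was 0.954 for W20 AL and W10, 0.945 for W20 IF and W20 AL and 0.958 for W20 IF and W10. Single libraries of the same group gave a median rho of 0.962 (0.903 to 0.987, 15 pairs), and libraries of different groups gave a median of 0.934 (0.872 to 0.973, 40 pairs). The ranges of rho within and between groups thus overlapped. W20 IF replicate 4 had a rho of 0.926 with the mean of W10, 0.900 with W20 AL and 0.908 with W20 IF. Of the members, 80 were in the top 100 of each of the 11 libraries, 87 were in the top 100 of W20 IF replicate 4, and 98 stayed within the top 150 of all 11.

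Outside the top 100 of at least 1 group were 7 members, all of them from rank 86 downward. ENSNFUG00015024209, rank 86, moved most, from place 96 in W10 to 68 in W20 AL and 110 in W20 IF. Rank 95 stood at place 109 and rank 98 at place 103 in W20 IF, and rank 87 went from place 75 in W10 to 91 in W20 AL and just past the limit in W20 IF. Rank 96 moved the other way, from place 112 in W10 and 104 in W20 AL to 71 in W20 IF. Ranks 99 and 100 moved by a few places around the limit. Genes that enter a list through the group in which they are high had to differ between groups, so these 7 say nothing about how often abundant genes change. Rank 96 also varied widely between fish, with 652, 1264, 1018 and 1551 CPM in W10, 1090, 876, 1319 and 1655 CPM in W20 AL, 1384, 2000 and 1695 CPM in W20 IF, and the fish left out, W20 IF replicate 4, had 515 CPM. Its highest and its lowest value over the 12 libraries thus both belonged to W20 IF.

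With age under full feeding, 6 of the 100 genes changed, 3 upward and 3 downward. Rank 86 is among the rises. Outside the top 100 of W20 IF, it had to be higher in another group to be listed, though it was inside the top 100 of both W10 and W20 AL. Over all 18277 genes tested, 3.23% were called in this comparison by the same rule (edgeR's quasi-likelihood test, Benjamini-Hochberg adjusted p under 0.05), 1.79% upward and 1.44% downward. No change reached 2-fold. The largest rise was that of rank 22, with 3100, 2779, 3408 and 2655 CPM in W10 and 4318, 5710, 5201 and 5191 CPM in W20 AL. Every W20 AL fish lay above every W10 fish, and the log2 fold change was 0.78 (SE 0.121, adjusted p = 0.00721, edgeR). Among the 100 genes it rose from place 41 in W10 to place 18 in W20 AL.

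The other rises were smaller and very even between fish. Rank 73 held 1482, 1448, 1428 and 1466 CPM in W10 and 1859, 1964, 1832 and 1812 CPM in W20 AL (log2 fold change 0.37, SE 0.066, adjusted p = 0.0125, edgeR). Rank 86, ENSNFUG00015024209, held 1335, 1328, 1299 and 1259 CPM in W10 and 1684, 1821, 1659 and 1623 CPM in W20 AL (0.39, SE 0.077, adjusted p = 0.0200). In both, every W20 AL fish lay above every W10 fish.

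Of the genes that fell, rank 36 changed most, from 4377, 4673, 4274 and 3316 CPM in W10 to 2685, 2746, 2896 and 2876 CPM in W20 AL (log2 fold change -0.56, SE 0.121, adjusted p = 0.0272, edgeR). ENSNFUG00015000694, rank 53, went from 2235, 2397, 2394 and 2523 CPM to 1693, 1491, 1826 and 1728 CPM (-0.49, SE 0.096, adjusted p = 0.0180). Rank 65 went from 2057, 1967, 2233 and 1996 CPM to 1469, 1463, 1508 and 1648 CPM (-0.43, SE 0.078, adjusted p = 0.0131). In none of these did a W20 AL fish reach the lowest W10 fish.

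The libraries of W20 AL and W10 did not overlap in 16 members, against 13.7% of all genes tested, and 20 members had an unadjusted p under 0.05, against 19.6%. The median log2 fold change was 0.02 over the members and -0.01 over all genes tested, but scaling between libraries tends to bring such medians near 0, the more so for genes that hold so many of the counts, and nothing is read from them. The number of called members was 3 with all 12 libraries in the fit and 10 with DESeq2. The share of all genes called in these and the following fits is not given, so such counts are not set against the background of the main fit. Leaving out W10 replicate 3 gave 2, and leaving out W20 AL replicate 2 gave 3. The calls of ranks 22 and 73 held without each library in turn, with all 12 libraries and with DESeq2, while those of ranks 36, 53, 65 and 86 were each lost without W10 replicate 3 (adjusted p = 0.0882, 0.0598, 0.0501 and 0.0584) and, for all but rank 86, with all 12 libraries (adjusted p = 0.119, 0.0674 and 0.0892). Leaving out W20 AL replicate 2 ended the calls of ranks 36, 53 and 86, and those of ranks 36 and 86 were also lost without W10 replicate 2 or W20 AL replicate 3, and that of rank 36 without W20 AL replicate 1 or 4 (adjusted p = 0.0505 to 0.0855 in these fits).

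Between the diets at 20 weeks, 11 members changed, 4 higher and 7 lower in W20 IF than in W20 AL. Here 15.2% of all genes tested were called (8.03% higher, 7.12% lower), so the share of called members was not above the background. ENSNFUG00015006993, rank 70, rose most, from 1524, 996, 1419 and 1454 CPM in W20 AL to 1983, 2285 and 2023 CPM in W20 IF (log2 fold change 0.63 between the diets, SE 0.155, adjusted p = 0.0169, edgeR). ENSNFUG00015000694, rank 53, rose from the W20 AL values given above to 2292, 2264 and 2680 CPM in W20 IF (0.52, SE 0.103, adjusted p = 0.00591). For both genes W20 IF replicate 4, the library left out, was higher still, at 2795 and 3198 CPM, which is not read as agreement.

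The largest falls were those of ranks 86 and 24. ENSNFUG00015024209, rank 86, went from the W20 AL values above to 1368, 1059 and 1082 CPM in W20 IF (log2 fold change -0.54, SE 0.085, adjusted p = 0.00163, edgeR). ENSNFUG00015022109, rank 24, held 4944, 4908, 5365 and 4938 CPM in W20 AL and 3421, 3575 and 3435 CPM in W20 IF (-0.54, SE 0.097, adjusted p = 0.00336). W20 IF replicate 4 lay below the other W20 IF fish in both, at 1000 and 3024 CPM, again not read as agreement. In W10, rank 24 held 3800, 4897, 4398 and 3826 CPM, so that the W10 range ended just below that of W20 AL and began above that of W20 IF.

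The remaining 7 changes between the diets were from -0.48 to 0.41 on the log2 scale. Rank 64 was higher in W20 IF, with 1849, 2206 and 2201 CPM against 1600, 1387, 1644 and 1650 CPM in W20 AL (log2 fold change 0.41, adjusted p = 0.0350, edgeR), and so was rank 88, with 1490, 1510 and 1619 against 1323, 1324, 1253 and 1226 CPM (0.26, adjusted p = 0.0425). Rank 56 was lower, with 1354, 1621 and 1821 against 1938, 2321, 2171 and 2510 CPM (-0.48, adjusted p = 0.0235). In these 3 genes W20 IF replicate 4 did not lie on the side of its group, with 1389 CPM of rank 64 and 1995 of rank 56, both within the W20 AL range, and 1053 CPM of rank 88, below it. Ranks 76, 44, 95 and 73 were lower in W20 IF by smaller amounts (log2 fold change -0.33, -0.30, -0.28 and -0.26, adjusted p = 0.0253, 0.0353, 0.0325 and 0.0258). At rank 95, however, W20 IF replicate 4 held 1494 CPM, above every W20 AL fish (1388 to 1456 CPM). Rank 73 held 1716, 1480 and 1495 CPM in W20 IF, of which 1480 lay within the W10 range and the others above it. Of the 11 called genes, W20 IF replicate 4 lay beyond the whole W20 AL range on the called side in 7, the exceptions being ranks 56, 64, 88 and 95. The share of all genes at which it lies beyond that range is not given here, so the 7 are not read as agreement. At uncalled ranks 96 and 43 it differed from the mean of the other W20 IF fish by -1.72 and 1.43 on the log2 scale.

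The median log2 fold change between the diets was 0.01 over the members and 0.02 over all genes tested, values that the scaling tends to set. Libraries of the W20 groups did not overlap in 21 members, against 24.7% of all genes tested, and 24 members had an unadjusted p under 0.05, against 29.8%. Leaving out replicate 2, 3 or 4 of W20 AL reduced the count of 11 to 5, 5 or 4, and leaving out replicate 2 of W20 IF reduced it to 6, with the share over all genes in those fits not given. The calls of ranks 24, 53 and 86 held in each of these fits and with all 12 libraries. That of rank 70 was lost without W20 IF replicate 2 (adjusted p = 0.0721) and held without each other library and with all 12. The other 7 calls were all lost without W20 IF replicate 2 (adjusted p = 0.0584 to 0.116) and without W20 AL replicate 4 (0.0516 to 0.102), and 6 of them when replicate 2 or 3 of W20 AL was left out. Leaving out W20 IF replicate 3 ended the calls of ranks 64, 73, 88 and 95, leaving out W20 IF replicate 1 those of ranks 44 and 56, and leaving out W20 AL replicate 1 those of ranks 64 and 88. Those of rank 64 (W10 replicate 2), ranks 44 and 88 (W10 replicate 3) and rank 88 (W10 replicate 4) also depended on young fish, which enter the same fit. The calls of ranks 56, 64, 73, 88 and 95 were also lost with all 12 libraries (adjusted p = 0.0905, 0.161, 0.0585, 0.371 and 0.367).

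**Figure D3:**
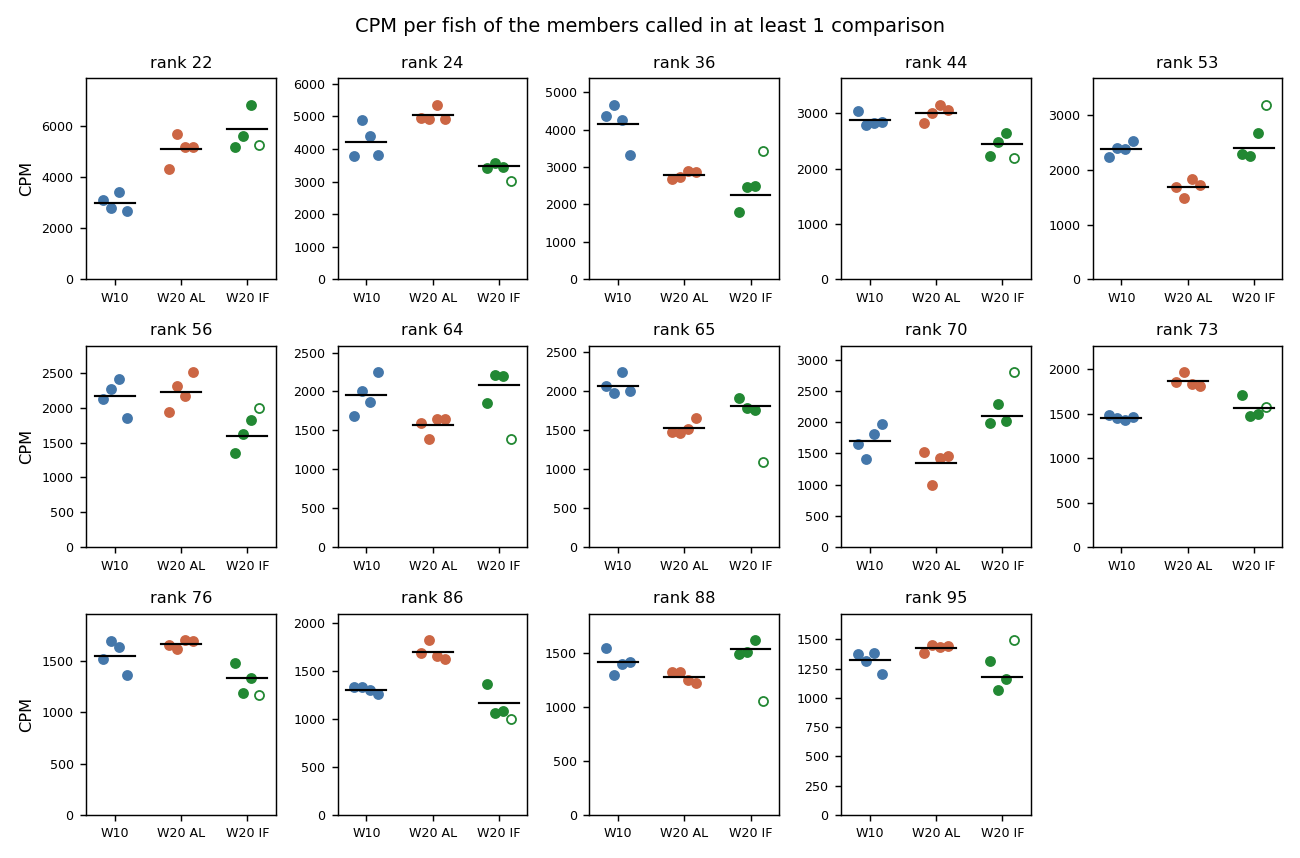
CPM (vertical axes, from 0) of the 14 members called in at least 1 comparison, 1 panel per gene, with 1 point per fish for W10, W20 AL and W20 IF. Horizontal lines are group means over the 11 libraries used in the tests and the open circle is W20 IF replicate 4, which lies above the other W20 IF fish at ranks 53 and 70 and below them at ranks 24 and 86. Against the call, it lies within the W20 AL range at ranks 56 and 64, below that range at rank 88 and above it at rank 95. At rank 36 it lies within the W10 range.

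Between the old fasted and the young fish only ranks 22 and 36 passed the test, 1 in each direction, while 5.01% of all genes tested were called (2.76% higher, 2.25% lower; edgeR, adjusted p under 0.05). Rank 22 held 5178, 5632 and 6844 CPM in W20 IF, above every W10 fish (log2 fold change 0.99, SE 0.129, adjusted p = 0.000957), and W20 IF replicate 4 held 5253 CPM. Rank 36 held 1806, 2477 and 2482 CPM in W20 IF, below every W10 fish (-0.87, SE 0.133, adjusted p = 0.00239), whereas W20 IF replicate 4, at 3420 CPM, reached into the W10 range. With that library in the fit the call of rank 36 was lost (adjusted p = 0.0524) and 1 member remained called, and DESeq2 called 5. The share of all genes called in those fits is not given. The groups did not overlap in 13 members, against 16.3% of all genes tested, and 20 members had an unadjusted p under 0.05, against 19.2%.

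In 5 members the test was passed in more than 1 comparison. Ranks 22 and 36 differed from W10 in both W20 groups, and their differences between the diets were not called. At rank 36 the W20 IF fish of the test nevertheless lay below all W20 AL fish (log2 fold change -0.31, adjusted p = 0.124, edgeR). W20 IF replicate 4, at 3420 CPM, lay above all W20 AL fish. Ranks 53, 73 and 86 differed in W20 AL from W10 and in W20 IF from W20 AL, with log2 fold changes of -0.49, 0.37 and 0.39 for W20 AL against W10 and 0.52, -0.26 and -0.54 for W20 IF against W20 AL. Both comparisons use the same 4 W20 AL libraries, so the opposite signs are not independent of each other. The 14 genes called in at least 1 comparison did not include any of ranks 1 to 20, and 10 of them stood between ranks 51 and 100. The share of all genes called in at least 1 comparison, or in more than 1, is not given. The counts of 14 and 5 and the places of these genes are therefore not read as a trait of the members.

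No member passed a 2-fold limit (absolute log2 fold change over 1 with adjusted p under 0.05) in any comparison with edgeR's quasi-likelihood test or with DESeq2, and no member did so at an unadjusted p under 0.05 with edgeR. Rank 22 lay close to the limit for W20 IF against W10, with 0.99 on the log2 scale, and passed it when 1 library was left out, with 1.07 without W10 replicate 3, 1.09 without W20 IF replicate 1 and 1.01 without W20 IF replicate 2 (adjusted p = 0.00244, 0.00138 and 0.00367, edgeR). Over all genes tested the limit was passed by 0.93% with age under full feeding, by 3.34% between the diets and by 1.93% between the old fasted and the young fish. Most members had narrow intervals. The 95% interval of the log2 fold change lay wholly between -1 and 1 in 99, 99 and 96 of the 100 genes in the 3 comparisons, against 82.2, 76.6 and 79.6% of all genes tested, and wholly between -0.5 and 0.5 in 84, 77 and 79 of them, against 48.1, 36.9 and 44.2%. The standard errors, which were derived from the test statistic, had a median of 0.098, 0.105 and 0.105 over the members and 0.149, 0.161 and 0.161 over all genes tested.

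The next genes in the order of abundance had standard errors like those of the members. Between the diets 11 of the 100 members were called, compared with 19.1% of the next 900 genes and 22.8% of the 4000 genes after those, where the median standard errors were 0.101 and 0.10. The median absolute log2 fold change in this comparison was 0.12 over the members, 0.16 over the next 900 genes and 0.19 over the 4000 after those. With age under full feeding, 6 of the 100 members, 5.11% of the next 900 genes and 5.05% of the 4000 after those were called, and the median absolute log2 fold changes were 0.12 in all 3 sets. These differences between sets of genes were not tested, as genes of the same libraries are not independent. The called members include rank 86 in both comparisons and rank 95 between the diets. Both lay outside the top 100 of W20 IF and so had to be higher in another group to be listed, though both were inside the top 100 of W10 and W20 AL.

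**Figure D4:**
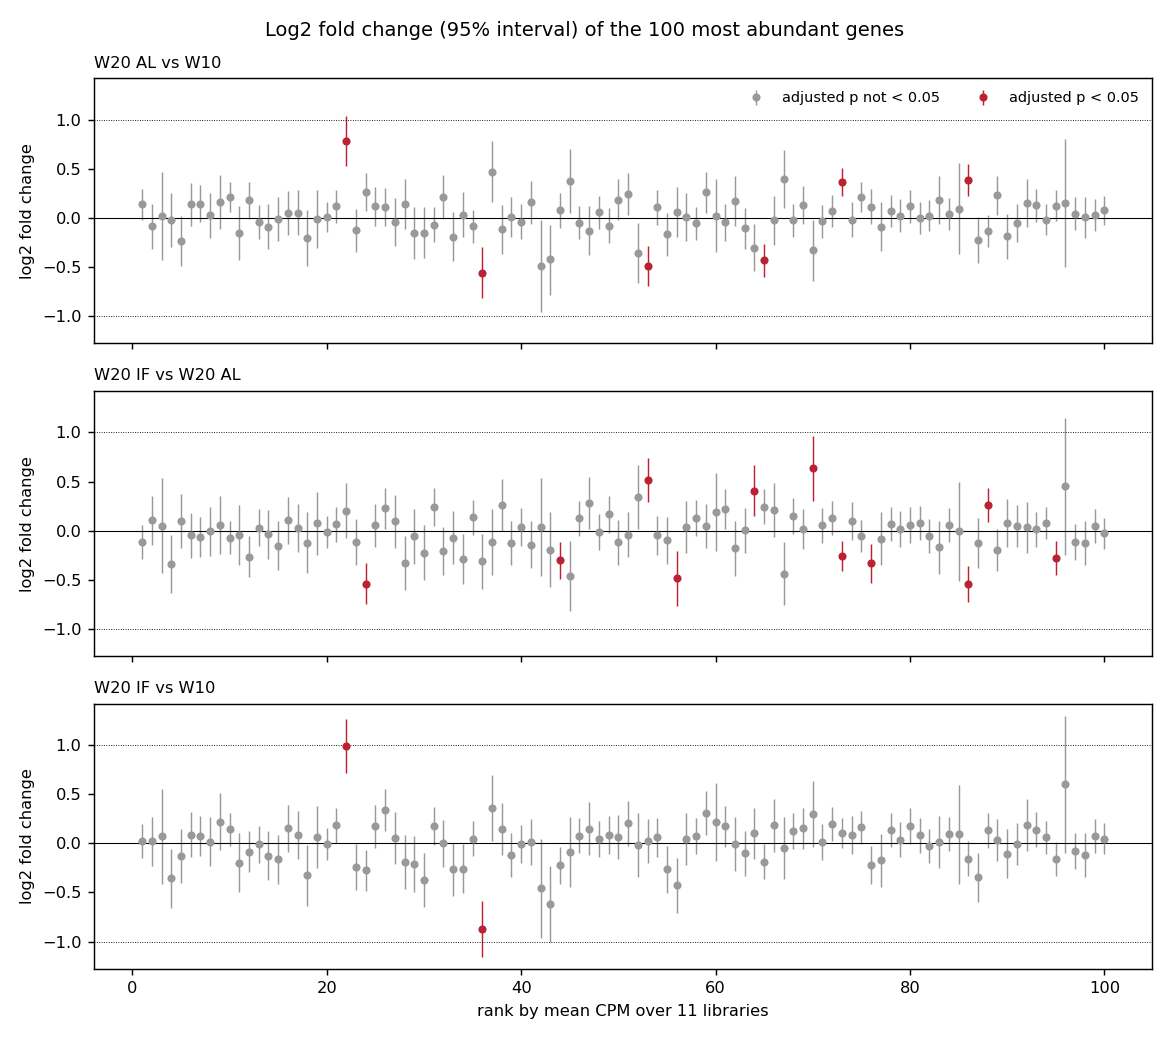
Log2 fold change (vertical axes, edgeR) with its 95% interval for each of the 100 genes against rank (horizontal axis), for the 3 comparisons, with dotted lines at -1 and 1. Genes with an adjusted p under 0.05 are in red (6, 11 and 2 from top to bottom), and no red point lies beyond a dotted line.

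Most members were even between fish of the same group. The median CV was 7.81% in W10, 6.62% in W20 AL and 10.8% in W20 IF, against 12.4, 12.7 and 15.2% over all genes tested. Counting error adds little to the CV of members, whose counts are high, and more to that of genes with few counts. The sets were not matched for abundance, so the lower CV is not a trait of the members alone. A CV above 20% was found for 3 members in W10, 1 in W20 AL and 12 in W20 IF. W20 IF replicate 1 had the lowest of the 11 values in 27 members and the highest in 21, more than any other library in each case. Rank 3 was the least even of the top 10, with 14805, 28466 and 15136 CPM in W20 IF and a narrower 16544 to 22096 CPM in W20 AL. Ranks 96, 3, 42, 85 and 43 had the highest CV averaged over the groups (26.4, 21.3, 19.7, 19.4 and 18.4%), and none of them was called in any comparison.

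A block of members varied together between fish. The members of ranks 2, 11, 14, 18, 23, 29, 30, 33, 55 and 60 have identifiers from 1 run of 32 consecutive entries of the table, a grouping noticed after the values had been seen. Their deviations from the group means (log2 CPM) correlated with a mean r of 0.881 over 45 pairs of genes (lowest 0.517). Over the 4950 pairs of all members, these 45 included, the median r was 0.052, and the mean over those pairs is not given. Each r was taken over the same 11 libraries. Their summed share was 5.93, 6.64, 6.66 and 6.94% in W10, 5.43, 6.96, 5.50 and 6.08% in W20 AL, 5.23, 5.72 and 7.0% in W20 IF and 9.30% in W20 IF replicate 4. Fish of the same group differed more than the groups did (means 6.54% ± 0.432, n = 4, 5.99% ± 0.708, n = 4, and 5.98% ± 0.913, n = 3, SD). None of the 10 genes was called by edgeR, the lowest adjusted p being 0.399 with age, 0.272 between the diets and 0.126 for the old fasted against the young fish.

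The high total share of W20 IF replicate 4 lay in this block. There the 10 genes took 9.30% of the counts, above the 5.23 to 7.0% of the 11 other libraries, while the other 90 members took 41.0%, within the 39.5 to 42.9% of the others. Rank 2, the most abundant of the block, held 36297 CPM in that library and 20656 to 28711 CPM elsewhere. The neighbours in the upper list, ranks 8 and 9, also have adjacent identifiers and deviated together (r = 0.908). How the authors treated reads that fit several genes is not given in the sources used here, so counts of genes that share reads are uncertain, and whether these neighbours do was not tested.

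**Figure D5:**
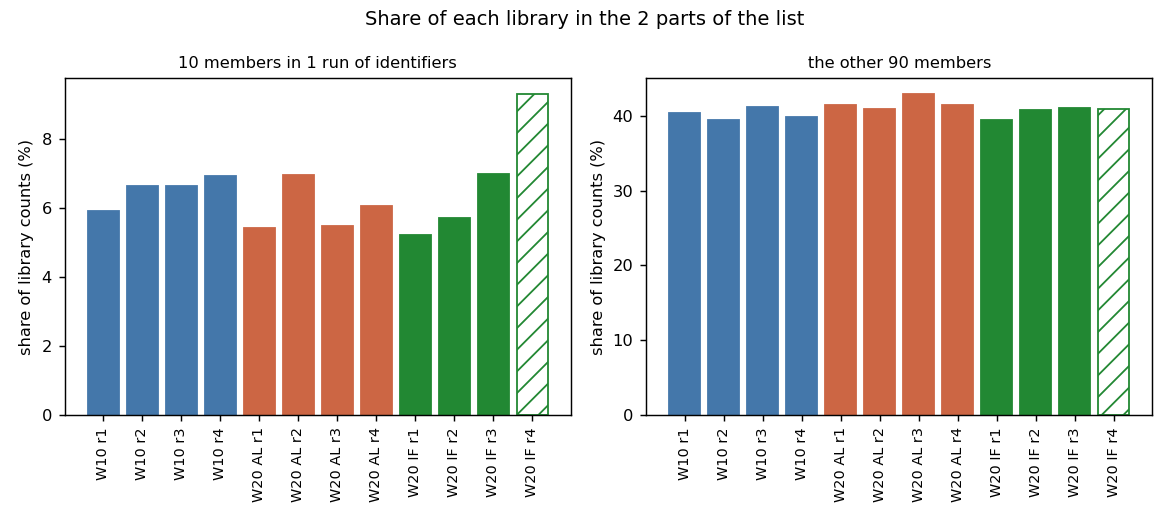
Share of library counts (%, vertical axes, from 0) of the 10 members with consecutive identifiers (left) and of the other 90 members (right) in each library, coloured by group, with W20 IF replicate 4 hatched. The left share runs from 5.23 to 7.0% in 11 libraries and reaches 9.30% in W20 IF replicate 4, and the right share stays between 39.5 and 42.9% in all 12.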

How the data were processed

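Poly(A)-selected RNA of the intestine was sequenced as paired 75 bp reads from directional libraries. After trimming (Trimmomatic) and alignment by STAR to Nfu_20140520, the authors counted reads per gene of Ensembl release 108 with featureCounts and deposited these whole-number counts, not normalized, in 1 column for each library. Program versions and the handling of multi-mapped reads are not given in the sources used here. The study housed the fish singly, and the tests set differences between groups against the spread between these libraries.

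From the counts, CPM was computed over all 25475 genes and the 100 genes were chosen without W20 IF replicate 4 (1512262 counts, against 23226098 to 26986542 in the others). The members and lists were chosen with earlier results of these data known. edgeR 4.0.16 with limma 3.58.1 (R 4.3.3) was applied to the whole table of 11 libraries with TMM scaling, filterByExpr (minimum count 10, minimum total 15) and the robust quasi-likelihood test, in 1 model with a mean for each group. Benjamini-Hochberg adjustment ran over 18277 genes, and members with an adjusted p under 0.05 were called. The test script was tested on simulated data with changes in W20 IF that were larger than any found among the members. How well changes of the reported sizes are recovered was therefore not checked. Shares were compared by two-sided exact permutation tests. Alternatives were all 12 libraries, DESeq2 1.42.0, the likelihood ratio test, other scalings and filters, a replicate block, other choices of members and each library left out in turn.

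Named were the first 10 members, the called members with the largest changes, members outside the top 100 of a group and the genes next to the limit of the list, with identifiers for the largest rises and falls between the diets and for rank 1. None of the identifiers (0) matched the table of gene names used, so the lists of pathways and cell type markers were not applied, and no sequences are shown. No pair of libraries was identical. Chi-square tests over the members gave at least 395 per degree of freedom in the 18 pairs within groups, so all were kept as separate samples. Figures were drawn with matplotlib 3.10.9 in Python 3.11.15.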

Additional observations from a re-analysis of the deposited data

Results flagged for a closer look

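In groups of 4 libraries, 57 sets of values were examined for a single value that stands apart (Dixon's ratio of the gap to the whole range), and 2 were past the 95% limit, where chance gives about 1 in 20. The total count of W20 IF replicate 4 stood apart within W20 IF, with a ratio of 0.965. The CPM of rank 24 in W20 AL had a ratio of 0.922, because 3 fish lay between 4908 and 4944 CPM and W20 AL replicate 3 at 5365. Without that fish the fall of rank 24 in W20 IF was still called. The cause of either was not tested.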

How the results depend on the processing

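Directions of the 19 calls of members did not reverse in any of 15 further fits per call (285 values, of which 65 lost significance and 220 did not). Calls lost numbered 9 with all 12 libraries, 4 with the replicate block and 0 with DESeq2 or library totals. For W20 AL against W10, the 6 called members became 10 with DESeq2, 3 with all 12 libraries and 0 with the 2-fold limit. With each library left out they were 2 to 8, and 2 of the top 50 genes were called. For W20 IF against W20 AL, the 11 became 7 with the likelihood ratio test and 7 with only the libraries compared. They became 0 with the 2-fold limit and 4 to 12 with each library left out. Of the top 50 genes 2 were called, and of the top 200 genes 22. For W20 IF against W10, the 2 became 5 with DESeq2, 1 with all 12 libraries and 0 with the 2-fold limit. With each library left out they were 2 to 3, and 5 of the top 200 genes were called. Counts over the top 50 or top 200 genes refer to sets of other sizes, so they alone show no change in the share called.

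With the replicate number as a block the called members were 6, 8 and 4 in the same order. Whether the numbers pair the fish is not given by the labels and was not settled here. Deviations from so few libraries per group cannot decide it, and pairs with different numbers were not set beside them. Over all genes tested the deviations of libraries with the same number correlated at -0.173 to 0.109, with 1 of 10 pairs over 0.1. Over the members they correlated at -0.19 to 0.442, with 5 of 10 over 0.1. The share of the 100 genes in W20 IF against W10 reversed to 0.606 points with all 12 libraries, and ranged from -1.19 to 0.516 with each library left out. That of the 10 most abundant genes reversed to 0.536 points with all 12 libraries and ranged from -0.422 to 0.607. That of rank 1 ranged from -0.00197 to 0.264, and its log2 fold change in W20 IF against W10 from -0.009 to 0.057 (-0.006 and -0.009 where reversed). The difference in the share of rank 1 between W20 AL and W10 ranged from 0.665 to 0.998 points, with an exact p of 0.0571 each time, the smallest that 4 against 3 allows. Depth limits only W20 IF replicate 4. The causes of these shifts were not tested.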
